A study of Mus musculus with 10 samples.

Results

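Newly transcribed RNA of the contralateral mouse kidney was compared with newly transcribed RNA of the normal mouse kidney, on 1 Affymetrix array for each. The contralateral kidney is the unclamped kidney of a mouse whose left kidney had been made ischaemic. The 2 arrays were taken by their titles from the 10 arrays of the series, and the other 8 arrays hold total RNA (4) and amplified total RNA (4), with 2 arrays per kidney group in each. Of 22690 probe sets, 22626 are not Affymetrix controls, and 13575 of these passed a filter on dim signal (a mean over the 10 arrays above the 40th percentile) and are described below. With 1 array a side there is no replicate spread for the newly transcribed RNA, so its differences are given as sizes, ranks and counts, with no test.

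All mice were C57/BLACK6 males of 7 weeks that weighed about 20 g. In the contralateral group, mice were anaesthetised with diethyl ether, the left renal artery and vein were clamped for 45 min after a flank incision, and reperfusion was counted as time 0. At 1 h and again at 2 h these mice received an intraperitoneal injection of 200 µM 4-thiouridine (s4U) with 34 µCi of tritiated cytidine in 1 ml of 0.9% NaCl, and the kidneys were removed at 3 h. Untreated normal mice received the same injections at 0 h and 1 h, without clamp, incision or ether in the labels, and their kidneys were removed at 2 h. The labels mention water as a control for s4U and no sham operation, so surgery, ether and the later time point cannot be told apart from the state of the contralateral kidney. The titles call the arrays biological replicates and do not say whether the preparations share mice or whether animals were pooled.

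s4U is a uridine analogue that cells take up and build into the RNA they make while it is present, so that the labelled RNA can be tagged and separated from the older RNA. Its signal follows synthesis during the labelling period, whereas total RNA is the sum of synthesis and earlier decay and moves slowly for stable messages. Short-lived messages, such as those of immediate early genes and cytokine feedback inhibitors, therefore make up a larger part of newly transcribed than of total RNA. The kidney remote from an ischaemic one can be reached by circulating cytokines and stress hormones: interleukins of the IL-6 family act through STAT3, and glucocorticoids through the glucocorticoid receptor.

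The arrays of the pair were unlike in brightness. The median deposited signal was 70.3 on the normal and 18.6 on the contralateral newly transcribed array, and 18.4% and 38.9% of their values lay below the added constant of 11.8. The ratio of 3' to 5' control signal was 12.7 against 68.9 for Gapdh and 12.7 against 24.8 for Actb. Values are therefore given as log2(deposited signal + 11.8) after quantile normalization over the 10 arrays, and a difference is contralateral minus normal on that scale, where 1 is 2-fold. Such a difference is relative to the array as a whole. Without scaling, the median of all differences moved from 0.00 to -1.64, and a gene that is higher after normalization can have a lower deposited signal. Of 217 list members and other named genes at least 2-fold higher after normalization, 130 had a negative difference as deposited, and so did the medians of 21 of the 24 gene lists whose median was positive; the exceptions were the acute phase, NF-kB and adipose lists. The part of brightness and 3' bias in the differences was not tested.

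The pair differed widely. Of the 13575 probe sets, 1953 (14.4%) were at least 2-fold higher and 2505 (18.5%) at least 2-fold lower on the contralateral array, together 4458 (32.8%). At least 4-fold apart were 346 (2.55%) higher and 514 (3.79%) lower probe sets. Differences ran from -4.48 to 5.21, with 5% of them below -1.86 and 5% above 1.61. For scale, 2 replicate arrays of one group in total or amplified total RNA had 46 to 137 probe sets at least 2-fold apart (0.339% to 1.01%), and their differences had an SD of 0.235 to 0.329 against 1.06 for the newly transcribed pair. The levels of the pair correlated at r = 0.788 across probe sets, which are not independent. How far replicates of newly transcribed RNA would differ is not known from these arrays.

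Each gene is represented below by its probe set of highest mean signal over all arrays, which gave 8300 genes with 1 symbol. Of these, 1198 (14.4%) were at least 2-fold higher and 1317 (15.9%) at least 2-fold lower in the contralateral kidney, and the median difference of all genes was 0.06. Of 350 named genes past 2-fold, 158 have at least 2 described probe sets, and in 31 of them the probe sets lay on both sides of 0, which is given beside those described below. These shares are the background for every list below. The 8 genes furthest up were Hp (5.21), Socs3 (4.30), Ifit1 (4.06), Cebpd (3.97), Plin4 (3.81), Gbp2 (3.63), Meg3 (3.61) and Apom (3.53, with 0.43 in its second probe set). The 8 furthest down were Dusp6 (-4.00), Nox4 (-3.90), Pbrm1 (-3.72), Ppat (-3.61), Klhl42 (-3.57), Lin7c (-3.50), Slc4a4 (-3.46) and Nat2 (-3.42).

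**Figure D1:**
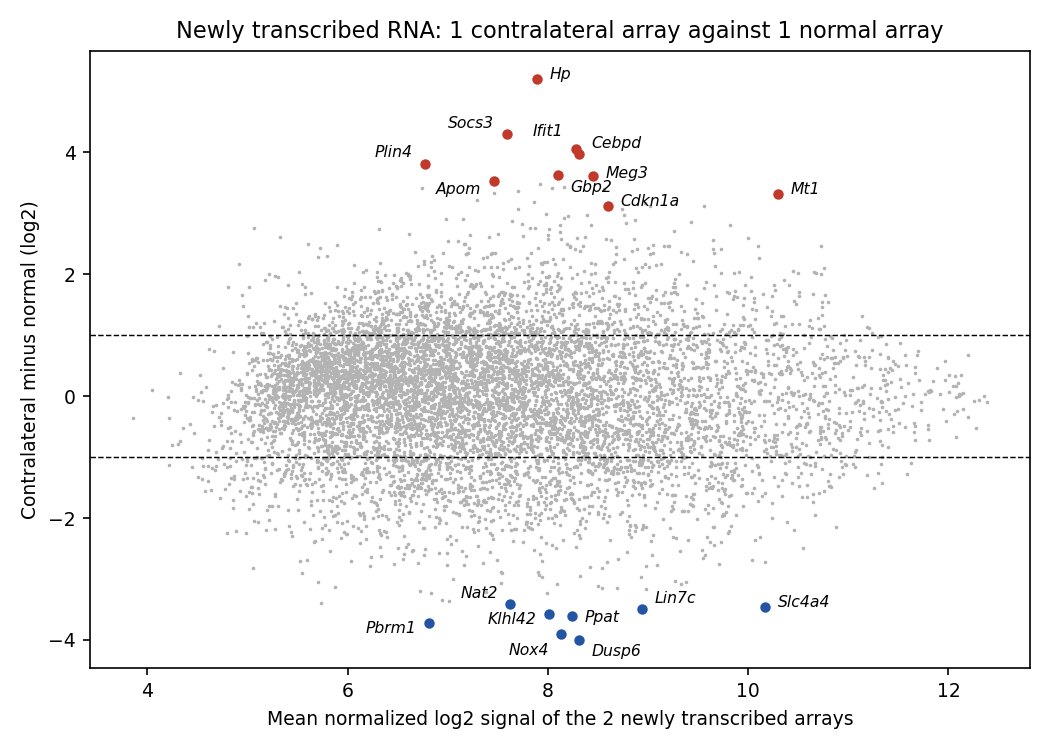
Each point is 1 of 8300 genes, plotted by the mean normalized log2 signal of the 2 newly transcribed arrays (x axis) and by the contralateral minus normal difference (y axis, log2). The dashed lines mark 2-fold in each direction, which 1198 genes exceeded upward and 1317 downward. Red and blue points are the 8 furthest up and down, with Mt1 and Cdkn1a added.

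The genes of the acute phase response and of IL-6 signalling through STAT3 stood high. Hp encodes haptoglobin, a plasma protein that binds free haemoglobin. It had a deposited signal of 42.2 on the normal and 728 on the contralateral array, which are 5.29 and 10.49 after normalization. Socs3, the feedback inhibitor that STAT3 induces against its own receptors, went from 5.44 to 9.74 (deposited signals of 49.6 and 382). Its second probe set had a difference of 3.11, and both probe sets are of a kind that can share probes with other transcripts. Cebpd, which encodes a C/EBP transcription factor active in acute inflammation, went from 6.32 to 10.29 (119 and 622), and its second probe set was 2.12 higher. Osmr, the receptor subunit for oncostatin M, went from 6.77 to 9.47 (174 and 307).

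Of 18 acute phase and STAT3 genes past the filter, 13 were at least 2-fold higher and 0 lower, with a median difference of 1.79. Among the effectors, the metalloreductase Steap4 (2.63), the glycoprotein Lrg1 (2.29), fibrinogen chain Fga (1.98), the iron-siderophore binder Lcn2 (1.96), serum amyloid Saa3 (1.89), ceruloplasmin (Cp, 1.55) and the lipopolysaccharide binder Lbp (1.19) were past 2-fold. On the receptor side, the shared signal transducer Il6st stood at 1.27 and Il6ra at 0.78. The transcription factors Junb (1.68), Cebpb (0.94) and Stat3 (0.65) and the kinase Pim1 (0.90) were higher, and fibrinogen chain Fgg (-0.52) was the only one of the 18 with a negative difference. Saa3 had nearly equal deposited signals (206 and 195), so that its difference exists only relative to the dimmer array. The same holds for Il6st (500 and 305), Cp (216 and 158) and Lbp (86.5 and 55.4), whose deposited signals were lower on the contralateral array.

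The Socs3 promoter is printed here because the gene is the second highest of the pair and a known STAT3 target. The RefSeq window on build GRCm38.p6 covers 250 bases before and 50 after the start of transcription, chr11:117969317-117969616, minus strand. Capitals mark the only match to the STAT dimer motif TTCNNNGAA, which reads the same on both strands.

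Socs3 promoter: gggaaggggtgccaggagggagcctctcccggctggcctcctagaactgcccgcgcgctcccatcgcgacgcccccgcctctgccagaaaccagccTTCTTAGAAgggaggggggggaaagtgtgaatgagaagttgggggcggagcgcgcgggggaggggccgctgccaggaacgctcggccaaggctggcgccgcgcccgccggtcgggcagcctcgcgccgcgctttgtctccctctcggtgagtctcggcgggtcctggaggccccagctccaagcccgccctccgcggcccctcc

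Of all 32851 promoter windows of this length, 8.3% hold that motif. It was found in 6.48% of promoters of genes at least 2-fold higher and in 6.18% of those at least 2-fold lower, against 6.69% of all described genes with an entry. A match is a run of letters and not a measured binding site. No promoter entry was matched for Hp and Cebpd.

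Interferon-stimulated genes were the next group. Ifit1, an antiviral protein that binds foreign RNA caps, went from 6.25 to 10.31 (deposited signals of 111 and 632). Gbp2, a guanylate-binding GTPase of cell defence, went from 6.28 to 9.91 (115 and 444), and its second probe set, which is not of the shared kind, was 2.31 higher. Mndal, a nuclear protein of the interferon-inducible p200 family, was higher by 2.95 and 3.04 in its 2 probe sets. Of 27 interferon-stimulated genes past the filter, 12 were at least 2-fold higher and 0 lower, and 24 had a positive difference, with a median of 0.93.

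The members past 2-fold covered several branches of the response. The oligoadenylate synthetase family genes Oas1a (2.35), Oasl2 (1.57) and Oas2 (1.25), the peptide transporter Tap1 (2.50) and the membrane protein Ifitm3 (2.44) were among them. The immunity GTPases Igtp (1.87), Gbp3 (1.23) and Irgm2 (1.22) stood beside the deconjugating enzyme Usp18 (1.81) and the transcription factor Irf1 (1.71). Irf9 (0.69) and Irf7 (0.57), which drive the response, stayed within 2-fold. Ifit3 (0.17) and Ifit2 (-0.54), relatives of Ifit1, did not share its difference, and Psmb8 (-0.04) and Ifi35 (-0.29) were also near 0 or below. The list's count was the same without probe sets of the shared kinds. Of the members past 2-fold, Igtp, Irf1, Oasl2, Oas2, Gbp3 and Irgm2 had lower deposited signals on the contralateral array.

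The promoters of Ifit1 (chr19:34640639-34640938, plus strand) and Gbp2 (chr3:142620413-142620712, plus strand) are printed because these genes were the furthest up of the list. Capitals mark matches on either strand to the core of the interferon-stimulated response element, GAAA and GAAA with 2 bases of any kind between them, which here lies on the minus strand. Ifit1 holds 2 matches and Gbp2 1.

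Ifit1 promoter: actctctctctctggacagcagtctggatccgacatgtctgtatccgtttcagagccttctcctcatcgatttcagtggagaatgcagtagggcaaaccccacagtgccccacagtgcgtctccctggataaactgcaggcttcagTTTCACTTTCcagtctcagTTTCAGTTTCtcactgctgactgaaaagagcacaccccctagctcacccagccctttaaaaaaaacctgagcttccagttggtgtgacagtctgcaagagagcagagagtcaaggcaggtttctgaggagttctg

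Gbp2 promoter: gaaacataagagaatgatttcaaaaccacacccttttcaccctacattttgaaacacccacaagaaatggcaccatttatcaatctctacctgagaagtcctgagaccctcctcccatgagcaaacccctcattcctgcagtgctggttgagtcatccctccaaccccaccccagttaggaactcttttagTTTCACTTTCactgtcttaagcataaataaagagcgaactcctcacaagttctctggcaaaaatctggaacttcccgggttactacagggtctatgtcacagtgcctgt

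The element was found in 54.2% of the 24 interferon-stimulated genes that have a promoter entry, which is how such genes are often recognised, and in 3.44% of all windows. It was found in 3.6% of promoters of genes at least 2-fold higher and in 1.85% of those at least 2-fold lower, against 3.05% of all described genes with an entry.

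Targets of NF-kB, the transcription factor of inflammatory signalling, numbered 10 past the filter, and 6 of them were at least 2-fold higher and 0 lower (median 1.46). They were the leukocyte adhesion molecule Icam1 (2.41), the macrophage growth factor Csf1 (2.26), the neutrophil chemokine Cxcl1 (2.19), Tnfaip2 (2.12), the NF-kB subunit Nfkb2 (1.55) and the apoptosis inhibitor Birc3 (1.37). Icam1 went from 7.07 to 9.48 (deposited signals of 222 and 311) and Cxcl1 from 5.73 to 7.93 (67.5 and 97.4). The inhibitors Nfkbia (0.73) and Nfkbiz (0.67) were higher by less than 2-fold, and Vcam1 (0.15) and Cx3cl1 (-0.14) stood near 0. Csf1 was not uniform, with probe sets from -0.27 to 2.26, and the other probe set of Tnfaip2 stood at 0.56.

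Glucocorticoid-responsive genes stood mostly on the higher side. Of 26 past the filter, 21 had a positive difference, 14 were at least 2-fold higher and 2 lower, with a median of 1.19. Apart from Cebpd, the highest were Mt1 (3.32), Cdkn1a (3.12), Igfbp1 (2.48), Mt2 (2.46), the steroid sulfate carrier Slc10a6 (2.35) and the transcription factor Zbtb16 (2.26). The chaperone of the glucocorticoid receptor, Fkbp5, stood at 1.49. Cdkn1a, which encodes the cell cycle inhibitor p21, went from 7.04 to 10.16 (deposited signals of 217 and 554). Igfbp1, which binds and restrains insulin-like growth factors, went from 7.81 to 10.30 (385 and 624).

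The 2 lower members are among the best known glucocorticoid targets of the kidney. Sgk1, the kinase that regulates sodium channels, went from 10.73 to 8.82 (deposited signals of 2207 and 189). Tsc22d3, which encodes the leucine zipper protein GILZ, went from 10.26 to 8.66 (1729 and 168), but its 3 probe sets ran from -1.60 to 1.20. Other classical targets differed by less than 2-fold: Dusp1 (-0.60), Errfi1 (-0.66), Klf9 (-0.43), Per1 (0.23), Pdk4 (0.29) and Pck1 (0.10).

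Metallothioneins, small proteins that bind zinc and copper, were well past 2-fold. Mt1 went from 8.63 to 11.96 (deposited signals of 671 and 2818) and Mt2 from 9.50 to 11.95 (1139 and 2802). The Mt1 promoter (chr8:94178839-94179138, plus strand) is printed because the metal response element is its known control element. Capitals mark 3 matches to the core TGCACNC or TGCGCNC, searched on both strands, which 25.7% of all windows hold at least once.

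Mt1 promoter: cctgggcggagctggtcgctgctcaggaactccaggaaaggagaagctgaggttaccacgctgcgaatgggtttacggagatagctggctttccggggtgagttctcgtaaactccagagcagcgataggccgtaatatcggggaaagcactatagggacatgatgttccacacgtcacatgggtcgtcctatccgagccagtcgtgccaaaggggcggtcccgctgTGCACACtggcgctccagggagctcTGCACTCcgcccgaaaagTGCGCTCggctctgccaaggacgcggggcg

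The antioxidant genes controlled by NRF2 did not move as one. Of 17 genes of the NRF2, metallothionein and heme list, 6 were at least 2-fold higher and 3 lower (median 0.54). Hmox1, the enzyme that degrades heme, went from 4.95 to 7.68 (deposited signals of 28.5 and 81.3), and the glutathione transferase Gsta2 (1.40), the sulfiredoxin Srxn1 (1.08) and Osgin1 (1.08) were also past 2-fold. The reductases Gsr (-2.29) and Txnrd1 (-1.84) and the transferase Gsta3 (-1.26) were lower. Nqo1, a standard NRF2 target, stood at -0.24 and Gclm at -0.57. The other probe set stood at 0.61 for Txnrd1 and at 0.40 for Gsta3.

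Of 16 p53 targets, 5 were at least 2-fold higher and 1 lower (median 0.36). Beside Cdkn1a these were the stress sensors Sesn2 (1.83, with -0.32 in its other probe set) and Ddit4 (1.17), the kinase Plk3 (1.33) and Phlda3 (1.19). The pro-apoptotic gene Pmaip1 was at -2.22, whereas the related Bbc3 was at 0.70. Mdm2, the ubiquitin ligase that p53 induces against itself, stood at -0.26.

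Immediate early genes, which are transcribed within minutes of a stimulus, numbered 21, of which 8 were at least 2-fold higher and 1 lower (median 0.85). Egr1, a zinc finger transcription factor, went from 8.03 to 9.86 (deposited signals of 447 and 423), and Junb (1.68), Srf (1.42), Fosl2 (1.39), Nr4a1 (1.30), Jund (1.30), Ier3 (1.11) and Gadd45g (1.01) were also past 2-fold. Among these 8, only Junb also had a higher deposited signal on the contralateral array (22 and 31.7). Fos (0.46), Jun (0.73) and Zfp36 (0.38) were within 2-fold, as was the other probe set of Srf (0.23). Gadd45a, a stress gene related to Gadd45g, went the other way, from 7.87 to 5.90 (403 and 20.6).

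Of 17 genes of ERK feedback and growth factor response, 0 were at least 2-fold higher and 3 lower (median -0.34), a lower share near the 15.9% of all genes. Dusp6, the phosphatase that switches off ERK, was the furthest down of all 8300 genes: it went from 10.31 to 6.32 (deposited signals of 1779 and 28.9). Hbegf, a growth factor of the EGF family, stood at -1.51 in this probe set and -1.15 in the other, and Dusp14 at -1.29. Spry2 (0.80), Spred1 (0.46) and the receptor Egfr (0.82) were above 0 by less than 2-fold.

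Slc4a4, Nox4 and Ppat were also among the 8 genes furthest down. Slc4a4, the sodium bicarbonate cotransporter of the proximal tubule, went from 11.90 to 8.44 (deposited signals of 4391 and 142), and its 3 probe sets lay between -4.37 and -3.46. Nox4, the NADPH oxidase of tubule cells, went from 10.08 to 6.19 (1578 and 25.9), while its second probe set differed by -0.82. Ppat, the first enzyme of purine synthesis, went from 10.05 to 6.44 (1548 and 32.3). Ppargc1a, the coactivator of mitochondrial genes, went from 10.90 to 7.85 (2426 and 91.8), and its 5 probe sets lay between -3.05 and -2.13.

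Unfolded protein and ATF4 genes lay on both sides. Of 25 in the list, 9 were at least 2-fold higher and 8 lower (median 0.53), and without probe sets of the shared kinds 6 of 24 were higher and 9 lower (median -0.29). On the higher side were the serine and glycine synthesis genes Phgdh (2.14), Shmt2 (2.03) and Psat1 (1.77) and the ATF4 targets Ddit3 (1.62), Nupr1 (1.51), Chac1 (1.23), Asns (1.19) and Atf5 (1.01), beside Sesn2. Phgdh, Shmt2 and Nupr1 were read by probe sets of the shared kinds, and the 4 probe sets of Shmt2 ran from -1.24 to 2.03. On the lower side were the disulfide isomerases Pdia3 (-2.49), Pdia4 (-1.33) and Pdia6 (-1.27, with 0.26 in its other probe set), the degradation factor Herpud1 (-2.15) and the chaperones Hsp90b1 (-1.13), Hspa5 (-1.10) and Dnajb9 (-1.02). Cth, which makes cysteine, was also lower (-1.83).

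Of 20 heat shock chaperone genes, 4 were at least 2-fold higher and 2 lower (median -0.09). The higher ones were the small chaperones Hspb1 (2.27), Hspb8 (1.96) and Cryab (1.86) and the inducible Hspa1a (1.70), and the lower ones were Dnaja1 (-1.75) and the mitochondrial Hspa9 (-1.14). The other probe set stood at 0.34 for Hspb8, 0.40 for Cryab and -0.84 for Dnaja1, all within 2-fold, and at 2.26 for Hspb1. Of 22 hypoxia and glycolysis genes, 5 were higher and 2 lower (median 0.33). Hexokinase Hk2 (3.21), the glucose transporter Slc2a1 (2.58, with probe sets down to -0.27) and Pfkfb3 (1.42) led upward, but Hif1a itself (-1.46) and the prolyl hydroxylase subunit P4ha1 (-1.33) were lower.

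Genes of fat use showed no common direction. Of 21 PPARA, fasting and fat oxidation genes, 5 were at least 2-fold higher and 4 lower (median 0.27). Plin4, which coats lipid droplets, went from 4.86 to 8.68 (deposited signals of 25.8 and 170), and the lipase inhibitor Angptl4 (1.79), Cyp4a14 (1.87), Acot1 (1.54) and Cpt2 (1.16) were higher. Ppara (-1.60), Cpt1a (-1.26, with probe sets up to 1.58), Vnn1 (-1.23) and Ppargc1a were lower. Of 19 cholesterol genes, 3 were higher and 4 lower (median -0.05): the lipogenic regulator Srebf1 stood at 3.43 and its relative Srebf2 at -1.15, and the synthesis enzymes Msmo1 (-1.96) and Sc5d (-1.96) were lowest.

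Of 15 circadian clock genes, 1 was at least 2-fold higher and 5 lower (median -0.24). Nfil3, a repressor of the clock output, stood at 1.79. Nr1d2 (-2.17), Clock (-1.87), Cry2 (-1.77), Hlf (-1.50) and Per2 (-1.25) were lower, while Per1 (0.23) and Nr1d1 (0.34) were near 0. Mice of the groups were killed at different times after time 0, and the labels give no hour of the day.

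Of 42 cytosolic ribosomal protein genes, 24 were at least 2-fold higher and 0 lower (median 1.05), and without probe sets of the shared kinds 19 of 34 were higher and 0 lower. Rpl35 (3.12), Rpl37a (3.06, with 2.35 and 0.28 in its other probe sets), Rps29 (2.80) and Rps15 (2.80) were highest. Of 70 respiratory chain and ATP synthase genes, 30 were higher and 3 lower (median 0.81), with Atp5e (2.85) and Ndufv3 (2.60) at the top and the succinate dehydrogenase subunit Sdhd (-1.78, with 0.46 in its other probe set) at the bottom. Mitochondrial ribosomal proteins were closer to the background, with 12 of 71 higher and 7 lower (median 0.38), and so were proteasome subunits, with 5 of 38 higher and 7 lower (median -0.04).

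Of 51 splicing factors and RNA helicases, 2 were at least 2-fold higher and 17 lower (median -0.46), the lowest being Srsf5 (-3.08), Hnrnpl (-2.71, deposited signals of 283 and 6.5) and Srsf2 (-2.70). The 4 probe sets of Srsf2 ran from -2.70 to 0.87. Of 44 chromatin remodellers and histone modifiers, 2 were higher and 14 lower (median -0.26). Pbrm1, a subunit of a SWI/SNF complex, was lowest (-3.72, deposited signals of 690 and 9.1), and its 3 probe sets were all past 2-fold down. Suz12, a Polycomb subunit, stood at -2.20, the ATPase Smarca2 at -2.00 and the demethylase Kdm6a at -1.98, whereas Chd8 (1.71) and the maintenance methyltransferase Dnmt1 (1.13) were higher.

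Of 33 zinc finger and forkhead regulators, 2 were higher and 12 lower (median -0.75), with Sox6 (-2.91) lowest. The 3 probe sets of Zbtb20 stood at -2.86, -2.52 and -0.02, and those of Sox4 at -2.74, -0.62 and 1.62. Of 28 kinases and small GTPase regulators chosen among long genes, 2 were higher and 8 lower (median -0.21). The 8 long non-coding RNAs split, with Meg3, an imprinted maternally expressed transcript, at 3.61 and Malat1, a nuclear transcript of splicing speckles, at -2.49. Xist (0.04), Gas5 (0.20) and Neat1 (-0.49) were near 0.

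**Figure D2:**
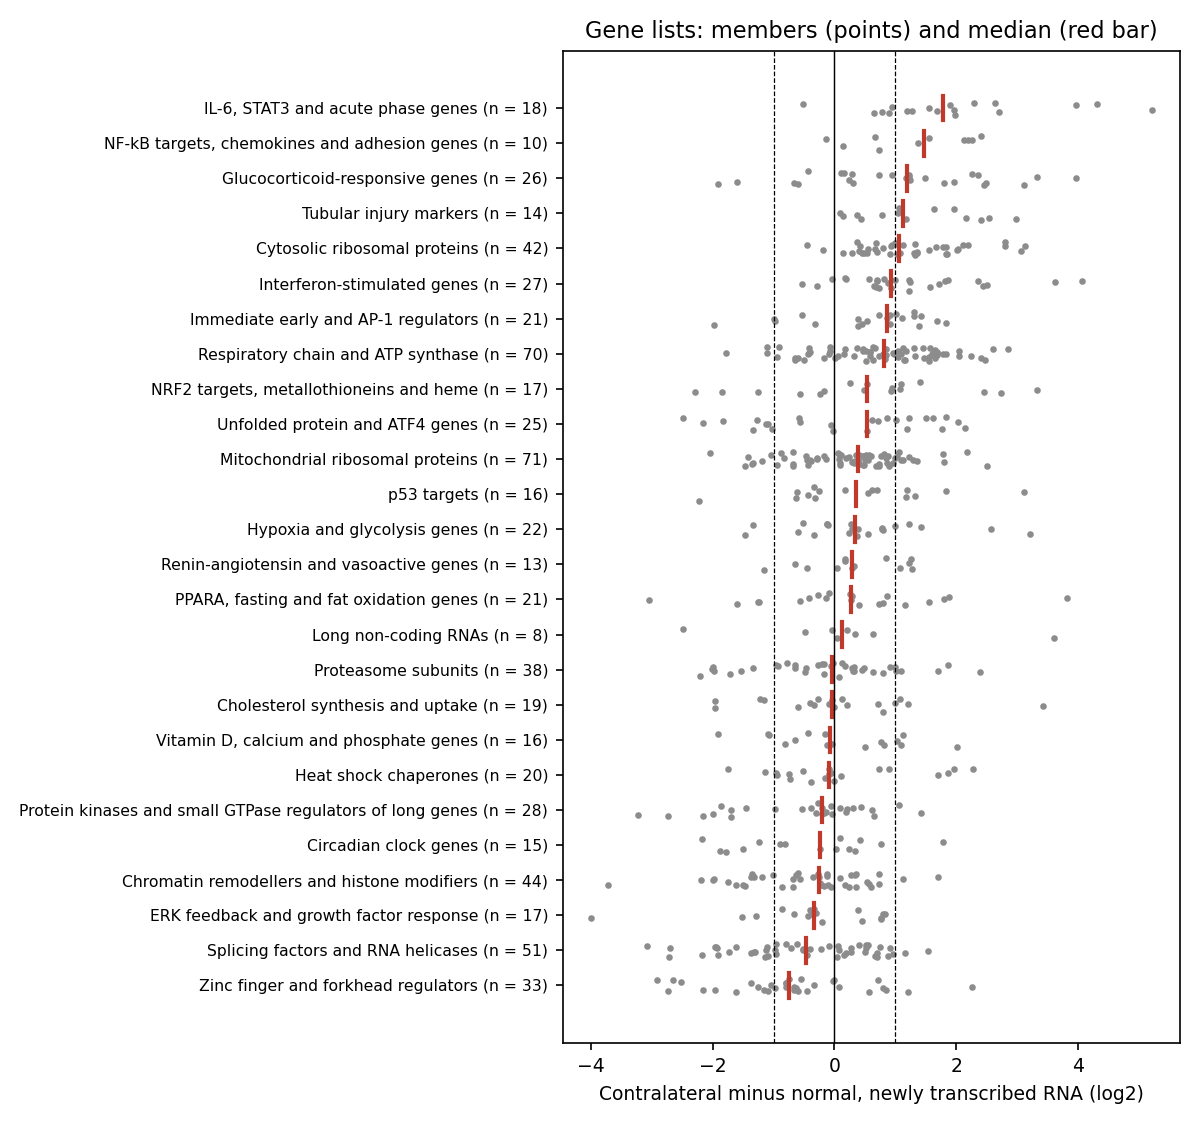
Each row is a gene list and each grey point 1 of its genes past the filter, at its contralateral minus normal difference in newly transcribed RNA (x axis, log2). The red bar is the list's median, the dashed lines mark 2-fold, and the lists drawn, which leave out the cell type markers other than those of tubular injury, are ordered by median from 1.79 for the acute phase genes to -0.75 for the zinc finger and forkhead regulators. The median of all genes is 0.06.

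Higher and lower genes differed in length. Gene span, the distance on the genome from the start to the end of a gene in RefSeq, was known for 8291 genes. Its median was 14.6 kb for genes at least 2-fold higher, 30.7 kb for those at least 2-fold lower and 22.2 kb for all. In the shortest of 10 groups of equal number (0.43 to 4.36 kb) 24.5% were at least 2-fold higher and 8.19% lower. In the ninth group (60.8 to 104 kb) the shares were 7.48% and 22.3%. The Spearman correlation of span with the difference across genes was -0.21 in newly transcribed, 0.12 in total and 0.02 in amplified total RNA. All genes of a pair share the 2 arrays and their 3' bias, and the part of either in this relation was not tested. Exceptions exist on both sides: Dusp6 spans 4.26 kb and was lowest, and Klf13, a transcription factor of 52.6 kb, was higher by 2.97.

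**Figure D3:**
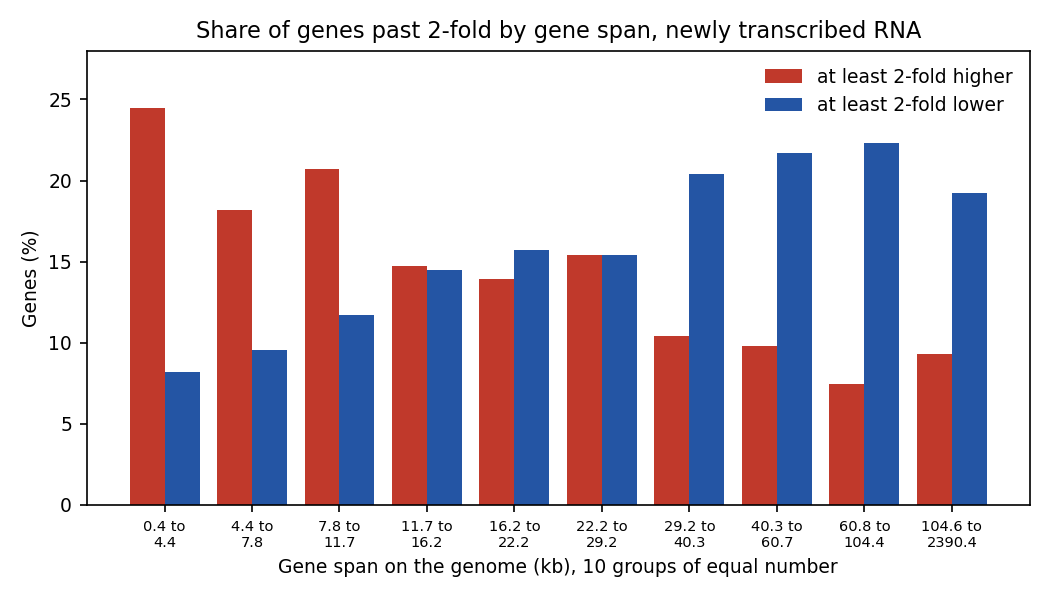
Bars give the share of genes (y axis, percent) at least 2-fold higher (red) or lower (blue) in newly transcribed RNA of the contralateral kidney, for 8291 genes in 10 groups of equal number ordered by span on the genome (x axis, kb). The red bar is taller than the blue one in the shortest groups (24.5% against 8.19% in the first) and shorter in the longest (9.29% against 19.2% in the last).

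Endocrine genes of the kidney had few common features. In the vitamin D, calcium and phosphate list, 4 of 16 were at least 2-fold higher and 3 lower (median -0.08). Cyp27b1, the hydroxylase that activates vitamin D, went from 9.37 to 7.45 (deposited signals of 1043 and 68.5), and Cyp24a1, which degrades it, stood at -1.09 and -1.39 in its 2 probe sets. The receptor gene Vdr (1.03, with -0.50 in its other probe set) and its calcium-handling targets S100g (2.01) and Trpv6 (1.09) were higher, and the phosphate regulator Kl was lower (-1.07). Among 13 renin-angiotensin and vasoactive genes, 4 were higher and 1 lower (median 0.29): Nos3 (1.26), Ace (1.26), Arg2 (1.22) and Avpr2 (1.07) against the endothelin receptor Ednrb (-1.15).

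Markers of injured tubule cells were higher. All 14 past the filter had a positive difference, 9 of them at least 2-fold, with a median of 1.12. Lgals3, a lectin of injured epithelium and macrophages, went from 6.49 to 9.47 (deposited signals of 138 and 308). The calcium-binding S100a6 (2.54), the secreted chaperone Clu (2.41), the keratins Krt8 (2.17) and Krt18 (1.63) and the annexins Anxa2 (1.18) and Anxa3 (1.06) were also past 2-fold. Krt8 was past 2-fold in all 3 probe sets (2.04 to 2.20) and Clu in all 4 (1.61 to 2.41). Most of these probe sets are of the shared kinds. Without such probe sets 9 of the 14 markers were still at least 2-fold higher. Krt18 had lower deposited signal on the contralateral array (122 and 102).

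The tissue label was checked with markers of the kidney's cell types. Proximal tubule genes were present on both arrays, with a summed deposited signal over 27 genes of 63558 on the normal and 24811 on the contralateral array, against 4295228 and 1387581 summed over all genes. Of these 27, 3 were at least 2-fold higher and 7 lower (median -0.20). Beside Slc4a4, the amino acid carrier Slc7a13 (-2.45), the creatine pathway enzyme Gatm (-2.35) and the endocytic receptor Lrp2 (-1.26) were lowest, and the peptidase Anpep (1.65) and Slc13a3 (1.64) highest. In a bulk sample, fewer cells of a type and less RNA per cell cannot be told apart.

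Of 15 thick limb and distal tubule markers 0 were higher and 2 lower (median -0.51), namely Cldn10 (-2.17) and Trpm6 (-1.55), and Umod stood at 0.16. Of 19 collecting duct markers 6 were higher and 0 lower (median 0.44), led by the sodium channel subunit Scnn1a (1.89) and the glucocorticoid-inactivating enzyme Hsd11b2 (1.79), with Aqp2 at 0.74. Of 11 podocyte markers none passed 2-fold (median -0.29). Endothelial markers were mixed, with 5 of 18 higher and 3 lower (median 0.18): Pecam1 (-1.55), Kdr (-1.45) and Flt1 (-1.30) were lower, and Cldn5 (1.25) and Plvap (1.22) higher.

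Markers of cells outside the nephron stood above the background. Of 16 fibroblast, mesangial and smooth muscle markers, 5 were at least 2-fold higher and 1 lower (median 0.85), with Col1a1 (2.65, and 0.22 in its other probe set) highest. Of 19 leukocyte markers, 9 were higher and 0 lower (median 0.95), and without probe sets of the shared kinds 6 of 16 were higher and 0 lower (median 0.62). Fcer1g stood at 2.76 (deposited signals of 1.3 and 32.4) and Adgre1, the macrophage marker F4/80, at 1.44 (61.3 and 52). Ptprc, the general leukocyte marker CD45, stood at -0.52. The summed deposited signal of leukocyte markers was 3758 on the normal and 2444 on the contralateral array. Of 3 red blood cell markers past the filter 1 was higher, and of 4 adrenal and skeletal muscle markers 1, the steroid gene Star (1.47).

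Adipose and hepatocyte markers were high beside the acute phase genes. Of 11 adipose markers, 8 were at least 2-fold higher and 0 lower (median 1.84). Car3 went from 7.38 to 10.55 (deposited signals of 282 and 763) in one probe set and by 0.52 in the other. Retn was higher by 2.65, the brown fat uncoupling protein Ucp1 by 2.49 (12.8 and 43.4) and Adipoq by 2.04, whereas Lpl stood at -0.22. Their summed deposited signal was 9523 on the normal and 5717 on the contralateral array. Of 10 hepatocyte markers, 4 were higher and 0 lower (median 0.97), with Apoc3 (3.42) highest and Alb, the defining marker, at 0.39 with deposited signals of 41.1 and 17.0. Without probe sets of the shared kinds 2 of 9 were higher and 0 lower (median 0.90), against 12.5% and 17.3% of all genes. Summed hepatocyte marker signal was 1232 and 1195. The part of perirenal fat, blood cells or other cell types in the acute phase, tubular injury and lipid gene differences was not tested.

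Agreement between several probe sets of one gene gives a check inside the pair, although such probe sets share the 2 arrays and the 2 RNA samples. Of 2861 genes with at least 2 described probe sets, 1591 (55.6%) had all probe sets on the same side of 0. In 93 genes all were at least 2-fold higher and in 177 all at least 2-fold lower, together 9.44%, while 79 genes (2.76%) had probe sets at least 2-fold apart from normal in both directions. In the 1958 genes with exactly 2, the differences correlated at r = 0.39 across genes, against 0.41 in total and 0.22 in amplified total RNA, and their median gap was 0.84. Where 1 probe set was at least 2-fold higher (438 genes), the other was positive in 306 and also past 2-fold in 77. Where 1 was at least 2-fold lower (663 genes), the other was negative in 456 and also past 2-fold in 147. Of the 247 genes with both past 2-fold, 224 (90.7%) had both on the same side.

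**Figure D4:**
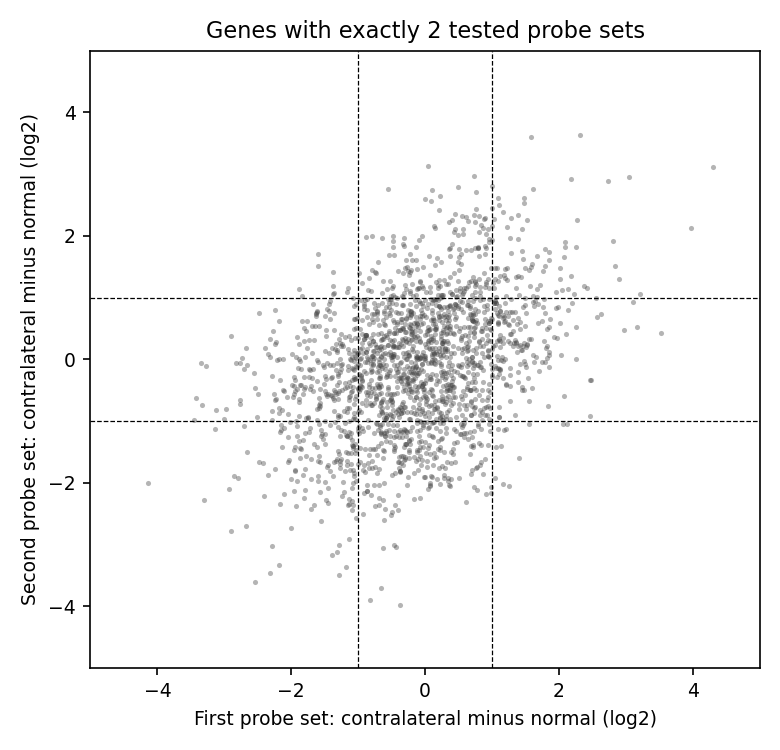
Each point is 1 of 1958 genes with exactly 2 described probe sets, plotted by the contralateral minus normal difference of one (x axis, log2) and of the other (y axis, log2). Dashed lines mark 2-fold. Most points lie in the middle or past 2-fold on 1 axis only, and of the 247 past 2-fold on both, 224 lie in the upper right or lower left corner.

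The 12 genes whose probe sets were all highest, by the smallest difference of each, were Socs3, Mndal, Tmsb10, Gbp2, Hspb1, Rgcc, Rps29, Cebpd, Krt8, Rps10, Atp5k and Rps28. All probe sets of Socs3, Tmsb10 and Rps29 have IDs ending in _x_at or _s_at, the shared kinds, as do most of those of Krt8, Atp5k and Rps28. Without such probe sets 44 genes had all probe sets at least 2-fold higher, against 93 with them. Tmsb10, an actin-sequestering peptide, was higher by 2.74 and 2.88. Rgcc, a regulator of the cell cycle, was higher by 2.17 and 2.92, and Hspb1 by 2.26 and 2.27. Rps10 was past 2-fold in 5 probe sets (2.04 to 3.12).

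The 12 genes at the other end were Slc4a4, Pdcl, Hccs, Ppat, Armc1, Rspry1, Gsr, Phospho2, Dhx36, Strn3, Ppargc1a and Itgb1. Pdcl, a chaperone of G protein subunits, was lower in both probe sets (-2.89 and -2.78), and so was Hccs, which attaches heme to cytochrome c (-2.69 and -2.68). The glutathione reductase Gsr stood at -3.31 and -2.29. Contralateral deposited signals lay below the added constant of 11.8 in both probe sets of Hccs (3.3 and 0.6) and Dhx36 (5.4 and 0.8). The same held for 1 probe set each of Gsr (2.9), Slc4a4 (11.4, the one at -4.37), Ppat (5.5), Pdcl (9) and Phospho2 (8.7). The sizes of these differences therefore depend on that constant. Itgb1, the common beta subunit of many integrins, stood at -2.17 and -2.11.

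The 6 genes with the widest disagreement were Mtss1, Atp5a1, Hnrnpf, Ywhaq, Kif1b and Sox4. Mtss1, an actin regulator, had probe sets at 1.26, -0.88 and -3.65. Atp5a1, an ATP synthase subunit, had probe sets at 3.51, 0.10 and -1.11. Hnrnpf, a splicing regulator, read 1.33 and 0.50 in the 2 probe sets of the shared kind and -2.83 and -3.11 in the others. For these genes no direction can be given.

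The kind of probe set moved with the difference. Of 1074 probe sets with IDs ending in _x_at, which can share probes with other transcripts, 42.1% were at least 2-fold higher and 4.38% lower (median 0.80). Of 8737 plain ones, 10.2% were higher and 20.3% lower (median -0.11). Meg3 was read by such a shared probe set, and its other one stood at 1.58. The part of cross-hybridisation in these values was not tested.

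Differences in total and amplified total RNA did not pick genes by size above, although all 10 arrays entered the normalization, the filter and the choice of each gene's probe set. These preparations have 2 arrays per kidney group, so limma with Benjamini-Hochberg adjustment was run on them. In total RNA 214 probe sets (1.58%) rose and 45 (0.331%) fell in the contralateral kidney, and in amplified total RNA 556 (4.1%) rose and 844 (6.22%) fell. The total RNA count of 259 depended on single arrays: it was 48 without the second normal array, 49 without the first contralateral array, 146 and 135 without the others of total RNA, and 132 and 131 without the first or second normal amplified array. The amplified count of 1400 was 540 and 513 without the first or second normal amplified array. By gene, 117 (1.41%) rose and 32 (0.386%) fell in total RNA, and 400 (4.82%) and 347 (4.18%) in amplified total RNA.

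Of the 1198 genes at least 2-fold higher in newly transcribed RNA, 40 (3.34%) rose and 2 fell in total RNA, and 120 (10%) rose and 15 fell in amplified total RNA. Of the 1317 at least 2-fold lower, 8 (0.607%) fell and 24 (1.82%) rose in total RNA, while 168 (12.8%) fell and 38 rose in amplified total RNA. Over all genes the shares were 1.41% and 0.386% in total RNA and 4.82% and 4.18% in amplified total RNA. Of the 72 genes that rose in both total and amplified total RNA, 37 were also at least 2-fold higher in newly transcribed RNA, and of the 9 that fell in both, 5 were also lower.

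The 37 include the regulators Socs3, Cebpd, Egr1, Nfil3, Zbtb16, Klf13, Ier3 and Gadd45g, the acute phase and cytokine genes Hp, Fga, Osmr, Steap4 and Cxcl1, and the metal and heme genes Mt1, Mt2 and Hmox1. Cdkn1a, Sesn2 and Ddit4 of the p53 list, Igfbp1, Fkbp5, Slc10a6 and Arg2 of the glucocorticoid list and the lipid genes Angptl4 and Plin4 are also among them. The 5 lower in all 3 preparations were Cyp27b1, the gap junction gene Gjb2, Gnpda1, Sap30 and Timd2. When single arrays were left out in turn, 12 of the 37 kept their calls in both preparations every time, among them Socs3, Cebpd, Cdkn1a, Mt1 and Igfbp1, and 0 of the 5 did. Timd2 stood at -1.51 in newly transcribed RNA, with a probe set at 0.29.

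Socs3 gives the clearest view of the levels. In total RNA its normalized signals were 4.85 and 4.58 in normal and 6.34 and 6.61 in contralateral kidneys, and in amplified total RNA 5.04 and 5.03 against 6.59 and 6.44, so that the groups did not overlap. It rose by 1.77 ± 0.18 in total RNA (limma, adjusted p = 0.00063) and by 1.48 ± 0.18 in amplified total RNA (adjusted p = 0.000534), where ± is limma's standard error on the log2 scale. The newly transcribed difference was 4.30.

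Cebpd had 5.83 and 6.18 in normal against 8.28 and 8.13 in contralateral total RNA and rose by 2.20 ± 0.17 (limma, adjusted p = 0.000172). Cdkn1a had 7.03 and 7.08 against 9.12 and 9.17 and rose by 2.09 ± 0.14 (limma, adjusted p = 5.45e-05). Both were higher by more in newly transcribed RNA (3.97 and 3.12), a difference between preparations for which no test is given. Hmox1 was the reverse case, with 6.06 and 6.69 against 9.61 and 9.57, a rise of 3.21 ± 0.30 in total RNA (limma, adjusted p = 0.000409) beside 2.74 in newly transcribed RNA.

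Hp had 4.71 and 3.84 in normal against 5.48 and 5.96 in contralateral total RNA. It rose by 1.45 ± 0.32 (limma, adjusted p = 0.0497), and that call was lost when the second normal total array was left out (1.01, adjusted p = 0.348) and when either contralateral total array was (adjusted p = 0.143 and 0.229), when either normal amplified array was (0.0725 and 0.0713) and under 6 further settings (0.0543 to 0.156). In amplified total RNA it rose by 1.85 ± 0.32 (limma, adjusted p = 0.00452), with 5.48 and 4.94 against 6.71 and 7.40; without the second normal amplified array the adjusted p was 0.0609.

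In the other preparations, the counts of interferon-stimulated genes that rose were near the shares of all genes. Over all genes 1.41% rose in total and 4.82% in amplified total RNA. The difference between preparations was not tested. Ifit1 had 6.15 and 5.97 in normal against 6.11 and 6.35 in contralateral total RNA, which overlap, and did not pass in total RNA (0.17 ± 0.15, limma, adjusted p = 0.666) or in amplified total RNA (0.45 ± 0.15, adjusted p = 0.0935). Of the 27 genes, 0 were called in total RNA (median -0.03), where Stat3, Cebpd and 7 other genes of the 18 in the acute phase list rose. In amplified total RNA 1 interferon-stimulated gene rose, Gbp2 (0.77 ± 0.16, limma, adjusted p = 0.0113), a call that ended without any of 3 amplified arrays, the normal ones or the second contralateral one.

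The same lists were counted in the other preparations by limma's call, which is another criterion than 2-fold, and differences between preparations were not tested. Over all genes 1.41% rose and 0.386% fell in total RNA, and 4.82% rose and 4.18% fell in amplified total RNA. Counts of the ribosomal and respiratory chain lists lay near these shares. Of the 42 cytosolic ribosomal protein genes, 0 rose and 1 fell in total RNA and 1 rose in amplified total RNA, and of the 70 respiratory chain genes 0 were called in total RNA while 2 rose and 5 fell in amplified total RNA. Of the 14 tubular injury markers, 1 rose in total RNA, against 3 in amplified total RNA. Lgals3 had 8.49 and 8.83 against 8.56 and 8.83 in total RNA (0.03 ± 0.15, limma, adjusted p = 0.952). Of the 26 genes in the glucocorticoid list, 18 rose in total and 17 in amplified total RNA. Of the 11 adipose markers, 1 rose in total RNA, Plin4 (1.07 ± 0.20, limma, adjusted p = 0.0257), which ended without any 1 of the 4 total RNA arrays.

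Genes that were lower in newly transcribed RNA and rose in total RNA include several named above. Tsc22d3 rose by 1.76 ± 0.33 in total RNA (limma, adjusted p = 0.0248) beside -1.60 in newly transcribed RNA. Gadd45a had 6.14 and 6.07 against 7.59 and 7.24 in total RNA and rose by 1.31 ± 0.20 (limma, adjusted p = 0.00755). Malat1 rose in total RNA by 1.92 ± 0.19 (limma, adjusted p = 0.000479) but fell in amplified total RNA (-2.96 ± 0.19, adjusted p = 8.43e-06), and its 4 probe sets in newly transcribed RNA ran from -2.49 to 0.68. Ppargc1a rose by 0.79 ± 0.12 in total RNA (limma, adjusted p = 0.00749) and fell in amplified total RNA (-1.51 ± 0.12, adjusted p = 3.31e-05), and the total RNA call ended without the second normal or the first contralateral total array.

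Slc4a4 shows how far the preparations part for one gene. In total RNA its signals were 10.36 and 10.21 in normal and 10.82 and 10.59 in contralateral kidneys, a difference of 0.41 ± 0.11 that did not pass (limma, adjusted p = 0.108). In amplified total RNA they were 10.72 and 10.64 against 7.95 and 8.13, a fall of 2.64 ± 0.11 (limma, adjusted p = 7.5e-07). The amplified arrays, like the newly transcribed ones, had higher 3' to 5' control ratios than total RNA. For Gapdh these were 5.29 and 4.21 on the normal and 6.23 and 4.39 on the contralateral amplified arrays. The part of 3' bias in this fall was not tested. Dusp6, the lowest gene in newly transcribed RNA, had 7.90 and 7.99 against 7.93 and 8.06 in total RNA and 8.88 and 8.82 against 9.10 and 8.76 in amplified total RNA, and passed in neither (limma, adjusted p = 0.907 and 0.753). Nox4 and Ppat likewise did not pass in either preparation.

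Cyp27b1 was lower throughout. Its total RNA signals were 7.99 and 7.88 in normal and 5.86 and 6.39 in contralateral kidneys, a fall of 1.80 ± 0.22 (limma, adjusted p = 0.00205), beside -1.92 in newly transcribed RNA and -1.06 ± 0.22 in amplified total RNA (adjusted p = 0.0105). The amplified call ended without the first normal or the first contralateral amplified array. Cyp24a1 rose in total RNA (0.69 ± 0.11, limma, adjusted p = 0.0106) and in amplified total RNA (1.04 ± 0.11, adjusted p = 0.000226), against -1.09 in newly transcribed RNA.

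**Figure D5:**
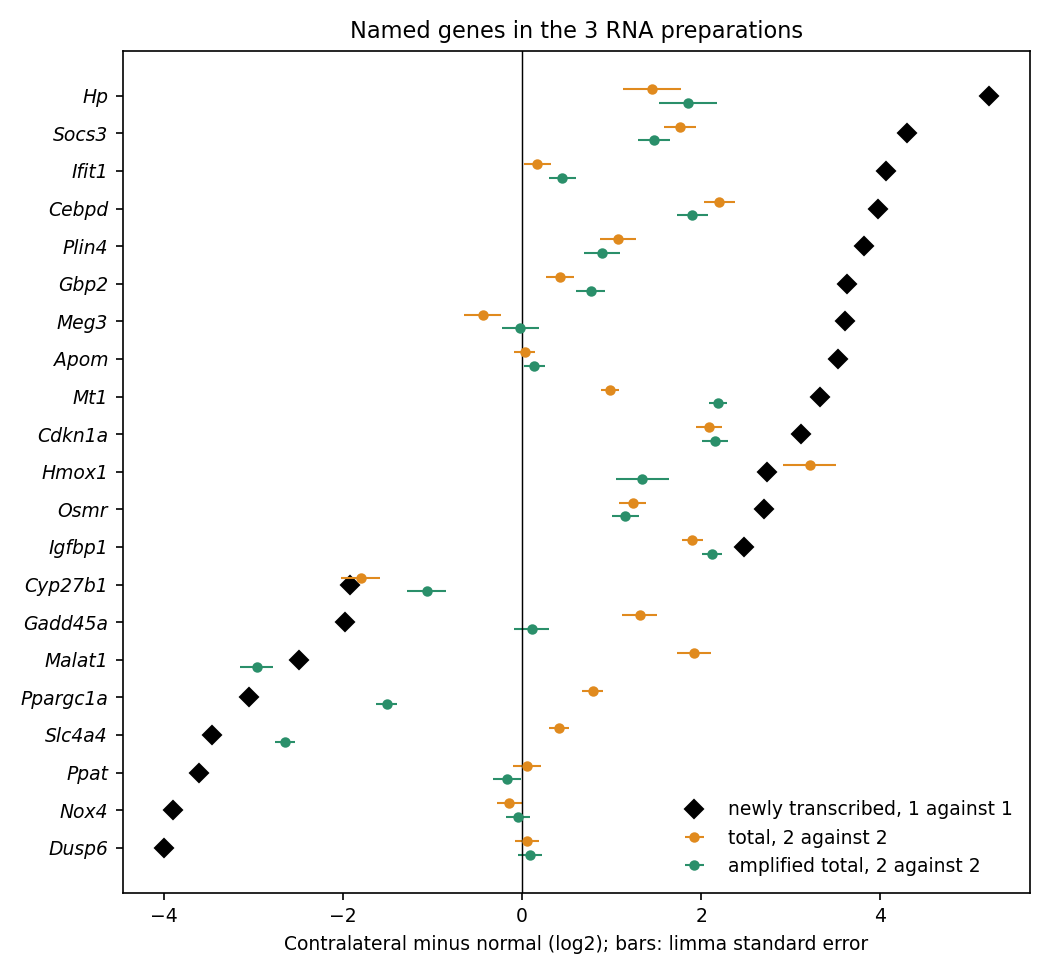
The contralateral minus normal difference (x axis, log2) of 21 named genes (y axis) is shown for newly transcribed RNA (black diamonds, 1 array against 1, no error), total RNA (orange) and amplified total RNA (green), the latter 2 with bars of limma's standard error, 2 arrays against 2. Socs3, Cebpd and Cdkn1a lie right of 0 in all 3, Ifit1 lies at 4.06 in newly transcribed RNA and at 0.17 in total RNA, and Malat1 and Ppargc1a lie on opposite sides in total and amplified total RNA.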

How the data were processed

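RNA of 10 arrays was reverse-transcribed, linearly amplified and biotin-labelled by a T7-based strategy, per the labels' protocols. The titles nevertheless set total RNA apart from amplified total RNA. Their Gapdh ratios of 3' to 5' control signal were 0.94 to 1.12 and 4.21 to 6.23. The authors deposited linear signal intensities, 1 for each probe set on each array. How they were summarised and scaled is not given in the sources used here, and detection calls were not used, so nothing is called absent. Values were transformed as log2(intensity + 11.8), 11.8 being the 25th percentile of all values, and quantile normalized over the 10 arrays. The added constant understates differences of dim genes.

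Of 22626 probe sets in the files other than controls, 20380 carry 1 symbol in the platform annotation, 691 several and 1555 none. Promoters and gene spans are RefSeq's (GRCm38.p6); 6757 of 8300 genes had a promoter entry. Total and amplified total RNA were tested with limma 3.58.1 in R 4.3.3, with 6 group means over the 10 arrays, 4 residual degrees of freedom, an intensity trend and a threshold of 0.05. P-values measure the spread between these arrays, whose number limits the precision. The fit was tested on simulated data.

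Genes and lists were chosen with earlier results of these data known. Named genes are the 8 largest differences each way, the 12 genes each way with all probe sets past 2-fold, the 6 with the widest disagreement, and list members.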

Additional observations from a re-analysis of the deposited data

How the results depend on the processing

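The counts rest on how the dimmer contralateral array is put on a common scale. With values as deposited, 72 probe sets were at least 2-fold higher and 10157 lower, and 3 and 1759 genes had all their probe sets past 2-fold. On that scale 130 of 217 list members and other named genes past 2-fold higher changed sign, among them Saa3 (-0.072) and these: Scnn1a -0.074, Cyp4a14 -0.049, Egr1 -0.078, Pdgfrb -0.12, Angptl4 -0.12, Mrpl41 -0.15, Hsd11b2 -0.18, Mgp -0.25, Krt18 -0.24, Acta2 -0.025, C1qb -0.31, Ttr -0.34, Hpd -0.45, Adgre1 -0.20, Slc4a1 -0.56, Srf -0.57, Pfkfb3 -0.55, Plk3 -0.46, H2-Aa -0.51, Nos3 -0.091, Ace -0.36, Arg2 -0.59, Stc2 -0.41, Ddit4 -0.50, Fkbp5 -0.14, Gadd45g -0.98, Ier3 -0.86, Psat1 -0.16 and Thbd -0.73. Outside that count, Coro2b (-0.25), Lox (-0.10), Sult1a1 (-0.79) and Upp2 (-0.50), which were higher in all preparations, also changed sign. So did 21 of 24 positive list medians, among them the glucocorticoid-responsive (-0.67), cytosolic ribosomal (-0.52), tubular injury (-0.77), interferon-stimulated (-0.66), immediate early (-0.98), respiratory chain (-0.61), leukocyte (-0.82) and hepatocyte (-0.40) lists. With the median over each gene's probe sets, 16 of 37 list medians moved by at least 0.1, and those of the long non-coding RNAs (-0.21) and the proteasome (0.0067) changed sign. Under the other 7 settings, 132 to 171 genes past 2-fold that were named by more than list membership could be compared. All of these settings but median scaling keep each gene's probe set and its rank on each array, so no sign could change there. With median scaling 0 of 170 genes changed sign, and 163 stayed past 2-fold. Requiring both newly transcribed arrays above the 40th percentile left 1221 lower probe sets, so that the higher share of those past 2-fold went from 43.8% to 61.1%, and 60 genes with all probe sets lower. Genes with all probe sets past 2-fold numbered 54 and 91 with the 50th percentile as added constant, 44 higher without probe sets ending in _x_at or _s_at, and 12 and 15 at 4-fold, where the probe sets numbered 346 and 514. In total RNA the 259 calls became 87 without a filter, and 48 to 377 without single arrays; in amplified total RNA the 1400 became 513 to 1293. With the replicate number as a block the counts were 277 and 1429, while deviations of same-numbered arrays correlated at -0.070 to 0.10; the block ended the limma calls of Hp (adjusted p = 0.0543), Ch25h (0.051) and Sap30 (0.051) in total RNA and of Pdcl (0.0541) in amplified total RNA. The causes were not tested. No paired analysis was possible for the newly transcribed arrays because each group has 1.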
